A study of Mus musculus with 24 samples.

Results

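The cytosolic ribosomal protein genes encode the protein part of the ribosome outside mitochondria, and they were described here in ATAC-seq peak lists of mouse hematopoietic cells. The members were the protein-coding genes of GENCODE vM21 (mm10) with a symbol of Rpl or Rps and a number, followed by at most 1 letter or a -like ending, without pseudogene symbols, Rps6k kinases or bp1 symbols. The rule found 76 genes of 21938, of which 46 belonged to the large subunit (Rpl) and 30 to the small subunit (Rps). It used the names alone and no measured value. Genes such as Rplp0, Rplp1, Rplp2 and Rpsa, which also encode ribosomal proteins, fall outside the symbol rule.

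ATAC-seq cuts accessible DNA with a transposase, and a peak marks a place where cuts accumulate. The data were 24 peak lists, 1 for each library, from 12 populations with 2 libraries each. The 10 primary populations came from adult C57BL6 mice. From bone marrow there were erythroid colony-forming cells (CFUE), erythroblasts (ERY), megakaryocyte erythroid progenitors (MEP), megakaryocytic colony-forming cells (CFUMK), immature megakaryocytes (iMK), cells without lineage markers but with Sca1 and cKit (LSK), common myeloid progenitors (CMP) and granulocyte macrophage progenitors (GMP). From peripheral blood there were monocytes (MON) and neutrophils (NEU), and the study's sample list gives the NEU cells as not sorted. G1E-ER4+E2 is a single clone of the G1E line in which a GATA1-ER hybrid protein that depends on E2 restores GATA1 function, and G1E is its GATA1-deficient, erythroid-committed parent. Per the study's methods, replicates were either different groups of mice or separate aliquots from the same group, and the labels do not say which, so a p-value here reflects how far these 2 libraries per population vary, which may be technical variation only.

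The primary lists held 84341 to 230877 peaks and the cell line lists 52720 to 70306. The relative depth read from the steps of the scores was, relative to the deepest library, 40.2% to 100% for primary cells and 22.3% to 27.0% for the lines. Promoters of all 12 erythroid marker genes were called in each CFUE and ERY list, against 7 to 10 in LSK, CMP and GMP lists. All 10 B cell marker promoters were called in both NEU lists, against 5 or 6 in MON lists, 5 to 7 in LSK, CMP and GMP lists. The iMK lists held calls for 11 of 12 granulocyte and 10 of 10 monocyte marker promoters, beside 4 and 5 of 10 megakaryocyte marker promoters. The iMK lists called 62.2% and 63.3% of all coding genes. Whether other cells were present in the libraries, and their part in the values below, was not tested. The LSK libraries, whose numbers lie apart, differed more over the members than any other pair, with a median absolute difference of 0.33 on the log2 scale against 0.089 to 0.29 for the other 11 pairs.

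Ribosomal proteins are made in near equal amounts, so their genes are often described as a coordinately expressed set, with strong promoters that lack a typical TATA box in mammals. Their mRNAs in vertebrates begin with a C followed by a run of pyrimidines, the 5' terminal oligopyrimidine (TOP) tract, through which translation responds to nutrients and mTOR. In blood formation, loss of 1 copy of several of these genes causes Diamond-Blackfan anemia in humans, in which erythroid progenitors fail, and loss of 1 copy of RPS14 contributes to the anemia of the human 5q- syndrome.

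The sequence about the start is shown for the members on which the results turn. Each window runs from 60 bases before the RefSeq start to 15 bases from it, 5' to 3' on the gene's strand in GRCm38.p6. Capitals mark CCGGAA (the core that ETS factors such as GABPA bind), GGGCGG (SP/KLF), AAGATGG (YY1), CCAAT (NFY), TATAAA (the box bound by TBP), CACGTG (the E-box of MYC) and AGATAA (the site of GATA factors), each on either strand, and a TOP tract at the start itself. The first 3 windows belong to members with promoters among the highest over the primary libraries, at chr14:18270972-18271046, chr15:5116553-5116627 and chr2:180257319-180257393. In Rps21 the capitals of the GGGCGG match and of the TOP tract run into each other.
Rpl15: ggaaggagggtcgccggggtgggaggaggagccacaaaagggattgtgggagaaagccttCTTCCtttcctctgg
Rpl37: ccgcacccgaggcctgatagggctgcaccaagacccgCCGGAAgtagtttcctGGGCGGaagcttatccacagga
Rps21: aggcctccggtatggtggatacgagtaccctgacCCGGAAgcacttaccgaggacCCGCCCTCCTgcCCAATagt
Windows of members with low promoters follow, Rps4x at chrX:102189377-102189451 and Rpl6 at chr5:121204441-121204515, and then the germ cell and muscle paralogs whose promoters were called in 1 list or none, Rpl10l at chr12:66284387-66284461, Rpl39l at chr16:10170168-10170242 and Rpl3l at chr17:24727766-24727840.
Rps4x: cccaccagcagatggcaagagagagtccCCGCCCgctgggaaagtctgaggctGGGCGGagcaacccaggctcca
Rpl6: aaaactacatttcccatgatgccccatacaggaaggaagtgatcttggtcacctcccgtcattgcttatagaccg
Rpl10l: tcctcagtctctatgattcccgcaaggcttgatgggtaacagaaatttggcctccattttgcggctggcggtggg
Rpl39l: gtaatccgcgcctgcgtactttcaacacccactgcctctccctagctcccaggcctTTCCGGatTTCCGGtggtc
Rpl3l: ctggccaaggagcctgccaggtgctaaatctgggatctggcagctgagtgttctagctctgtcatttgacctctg
The last 5 windows belong to the members with a RefSeq entry whose height changed most in erythroid cells (Rps20 and Rpl23a, which changed more, have none), higher for Rpl19 at chr11:98026650-98026724, Rpl26 at chr11:68901506-68901580, Rpl13 at chr8:123102290-123102364 and Rps18 at chr17:33955651-33955725, and lower for Rpl22 at chr4:152325666-152325740.
Rpl19: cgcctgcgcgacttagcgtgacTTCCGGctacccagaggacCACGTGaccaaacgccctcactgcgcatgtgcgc
Rpl26: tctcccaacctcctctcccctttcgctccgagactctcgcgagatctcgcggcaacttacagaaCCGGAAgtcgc
Rpl13: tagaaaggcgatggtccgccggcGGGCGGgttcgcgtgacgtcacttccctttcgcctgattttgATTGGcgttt
Rps18: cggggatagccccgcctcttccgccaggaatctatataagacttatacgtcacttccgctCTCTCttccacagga
Rpl22: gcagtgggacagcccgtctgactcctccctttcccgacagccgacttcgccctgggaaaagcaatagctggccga

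RefSeq promoter entries, 250 bases before to 50 bases after a start, matched 57 of the 76 members. Over the 53 of these that were called in all 24 lists, a TOP tract stood exactly at the start in 11 (20.8%), against 2.18% of the 6603 matched genes called in all 24 lists and 2.19% of the 16522 matched protein-coding genes. Within 5 bases of the start on either side, such a tract was present in 26 of the 53 (49.1%), against 19.9% and 18.9%. Rps21, Rpl15 and Rps18 carry it at the start in the windows above. The RefSeq starts of Rpl15 and Rps18 lie 405 and 336 bp from the outermost start that GENCODE gives these genes. CCGGAA was found in 27 of 53 member promoters (50.9%), against 36.4% of the genes called in all 24 lists and 19.7% of all promoters. GGGCGG was present in 30 (56.6%), against 68.7% and 48.2%, and CCAAT in 16 (30.2%), against 42.7% and 38.8%. AAGATGG was present in 8 (15.1%), against 8.92% and 6.43%, and 4 of its 8 matches began at or downstream of the start. TATAAA (4 promoters, against 5.63% and 12.9% of the comparison sets), CACGTG (5 promoters, against 11.3% and 8.09%) and AGATAA (3 promoters, against 5.59% and 9.70%) were the rarer motifs. The member promoters had a median G and C content of 57.0% and 21 CpG dinucleotides, against 61.3% and 22 for the genes called in all 24 lists. A motif match is a description of these letters only.

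The first question was in which lists a member's promoter was open. A promoter was counted as called where any base of a peak lay within 500 bp of an annotated transcript start. Of the 76 members, 71 were called in all 24 lists, against 8230 of 21938 protein-coding genes (37.5%). Each list held calls for 71 to 74 members, although the share of all coding genes called ranged from 42.5% to 68.8%. All 30 small subunit genes were called in all 24 lists, and the 5 exceptions were large subunit genes.

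Rpl39l and Rpl3l were called in none of the 24 lists, and Rpl10l in 1, MON replicate 1, where its peak ranked at the 23rd percentile of the list and reached 0.129 times the height of the median promoter. Rpl39l and Rpl10l are paralogs expressed mainly in male germ cells, and Rpl3l is the paralog of striated muscle. Their broadly expressed counterparts Rpl39, Rpl3 and Rpl10 were called in all 24 lists. The windows of Rpl10l, including 20 kb on each side, held 0 to 3 peaks in any list, those of Rpl39l 0 to 5 and those of Rpl3l 5 to 12. The start of Rps2, called in all 24 lists, lies in the window of Rpl3l. Rps27l, a p53-responsive paralog of Rps27, was called in all 24 lists. The other 2 exceptions, Rpl10a and Rpl17, were called in 23 lists each and were both missing from G1E replicate 2. Leaving out that list raised the number called in every list to 73.

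A second measure was the height of the promoter, the score of its highest peak, ranked among the highest promoter peaks of all coding genes called in the same list. On this scale of 0 to 100 the median member stood at 60.3 to 77.9 across the 20 primary libraries, and at 49.8 to 54.5 across the 4 cell line libraries. The lowest primary values were those of MEP (61.1 and 60.3) and the highest those of NEU (77.9 and 77.4). Over the primary libraries, 63 of the 73 members called in more than 1 list had a median above the 50th percentile. Among all peaks of a list, the members' median was at the 94.0th to 97.7th percentile in primary libraries, against 89.2 to 94.2 for all called promoters. In the cell lines the ranges were 79.6 to 91.0 for the members and 80.1 to 89.8 for all called promoters. The cell line lists called 9316 to 10038 coding genes, against 10818 to 15101 in primary lists, so the sets ranked differ between them. In multiples of the list's median over the 8230 genes called in all 24 lists, the median member reached 0.887 to 0.930 in the lines. It reached 0.856 to 1.54 in primary libraries, and MEP, at 0.865 and 0.856, lay below the lines on that scale. Each population has 2 libraries, and no test was run on this ranking.

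**Figure D1:**
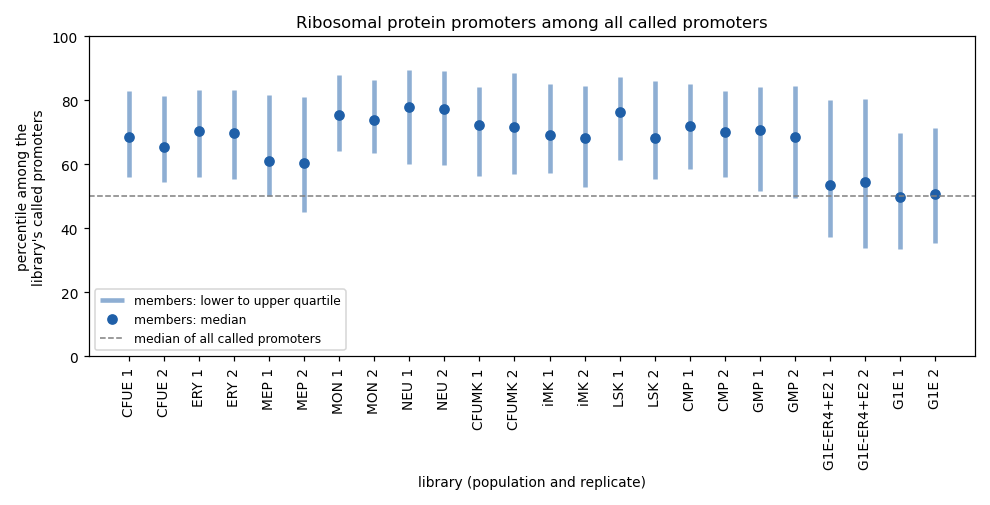
Percentile of the members' promoter height among all called promoters (vertical axis, 0 to 100) in each of the 24 libraries (horizontal axis); points are medians, bars run between the quartiles and the dashed line is the median of all called promoters. The median member stands at 60.3 to 77.9 in primary cells and at 49.8 to 54.5 in the lines. The lists of the lines called fewer promoters, so the sets ranked differ.

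The promoters of the set were far from uniform. Among the highest medians over the primary libraries were those of Rpl15, Rpl37, Rps21 and Rps12, and the lowest, apart from Rpl10l, belonged to Rpl4, Rps4x, Rpl6, Rpl19 and Rpl10a. Height is given from here on in multiples of the list's median over the 8230 genes called in all 24 lists. Rps21, a small subunit protein, reached 2.86 and 2.59 in ERY, 3.03 and 3.15 in NEU, 2.39 and 2.29 in LSK and 3.38 and 2.76 in G1E, so it stood at more than 2 times the median promoter in all of these. At the other end, Rps4x, the X-linked small subunit gene, had 0.252 and 0.195 in ERY, 0.351 and 0.385 in NEU and 0.592 and 0.533 in LSK, below the median promoter throughout. Rpl6 had 0.529 and 0.713 in ERY, 0.931 and 0.871 in NEU and 0.515 and 0.624 in LSK. Between replicates the heights of the 71 members differed by a median of 0.089 to 0.33 on the log2 scale, and across members the pairs correlated at Pearson's r of 0.75 (LSK) to 0.99 (ERY), as a description over genes of the same 2 libraries.

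**Figure D2:**
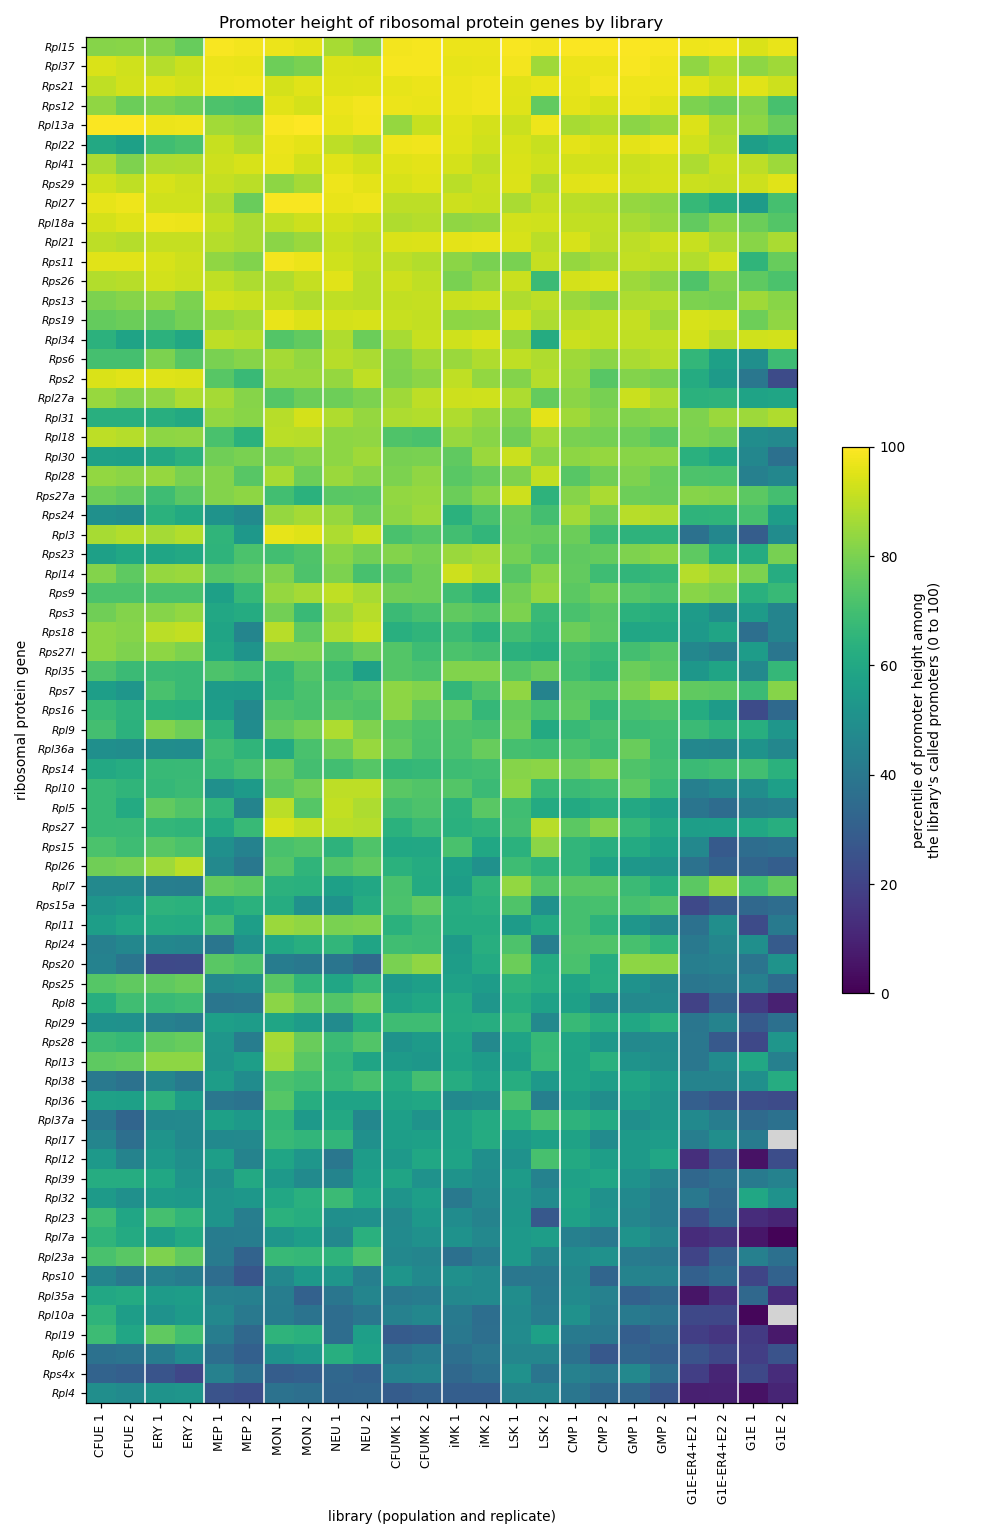
Promoter height of 70 members called in more than 1 list (rows, ordered by their median over primary libraries) in 24 libraries (columns, 2 for each population), as a percentile from 0 to 100 among the library's called promoters; grey cells were not called. Rpl15, Rpl37 and Rps21 lie at the top and Rpl4, Rps4x and Rpl6 at the bottom, with single rows such as Rps20 and Rpl22 that turn darker in CFUE and ERY.

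For 16 members another protein-coding gene starts within 500 bp, and for 14 of them the highest peak was shared with that gene in all 24 lists. These include Rpl15 (with Nkiras1), Rpl4 (with Zwilch), Rpl18 (with Sphk2), Rpl35a (with Iqcg), Rps18 (with Vps52) and Rps25 (with Trappc4), whose heights therefore cannot be assigned to 1 gene of the pair. For Rpl4 the centre of the highest peak lay at a median of -464 bp from the start, upstream of it. Over all members the highest peak was centred near the start, at a median of 24 to 43.5 bp upstream in primary libraries, against 34.5 to 41.5 bp for all called promoters. Small nucleolar RNA genes lie within 27 of the 76 members on the same strand, as is usual for this gene family.

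Around the start the members showed a main peak just upstream and, in many populations, a separate peak downstream. All genes called in all 24 lists had a like shape, in LSK with 66.6% covered at the start, 25.1% at 100 bp and 40.6% at 260 bp downstream. Called peaks were at most 150 bp wide in every list. The part of this width in the gap between the main and the downstream peak was not tested. The share of the 53 matched members with a peak base at 40 bp upstream of the RefSeq start was 79.2% to 92.5% in the 24 lists, against 70.4% to 77.5% of the 6603 genes called in all 24 lists. At 100 bp downstream 2 to 18 of the 53 members (3.77% to 34.0%) were covered, against 16.5% to 28.6% of all genes, ranges that overlap. At 260 bp downstream 33 and 36 of the 53 members (62.3% and 67.9%) were covered in ERY and 32 and 30 in CFUE, against 27 and 25 in LSK, 25 and 26 in CMP and 22 and 21 in GMP. The ERY and CFUE values lie above all 6 multilineage values. The share of all genes there was 41.4% and 45.3% in ERY and 48.4% and 45.3% in CFUE, against 34.1% to 44.2% in the multilineage lists. In iMK the downstream peak was present in 30 and 31 members (56.6% and 58.5%), against 41.4% and 40.4% of all genes, and in CFUMK in 18 and 20 (34.0% and 37.7%), against 38.7% and 40.0%. MON had 17 and 18 members (32.1% and 34.0%), against 33.0% and 29.9% of all genes, and NEU 13 and 16 (24.5% and 30.2%), against 26.1% and 27.6%, so the members' share in both was near that of all genes. In the cell lines it was present at 18 and 19 members in G1E-ER4+E2 and at 6 and 5 in G1E, beside 31.4% and 33.8% of all genes in G1E-ER4+E2 and 19.5% and 22.6% in G1E. The lists differ in depth, and its part in these shares was not tested.

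**Figure D3:**
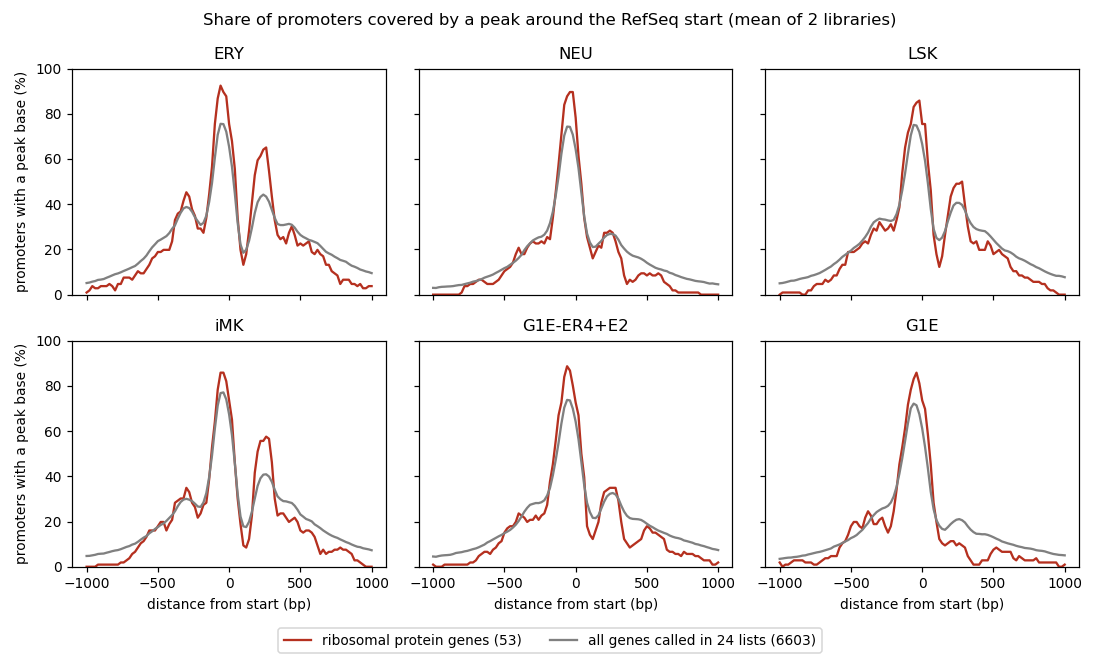
Share of promoters with a peak base (vertical axis, percent) by distance from the RefSeq start (horizontal axis, bp, negative upstream) for 53 ribosomal protein genes (red) and 6603 genes called in all 24 lists (grey), mean of 2 libraries in ERY, NEU, LSK, iMK, G1E-ER4+E2 and G1E. A main peak just upstream of the start is present in all 6 panels, and the peak about 260 bp downstream, which covers 62.3% and 67.9% of members in the ERY libraries, covers 11.3% and 9.43% in the G1E libraries.

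The question of the next comparison was whether member promoters changed height with erythroid maturation, in CFUE and ERY against the multilineage populations LSK, CMP and GMP. Heights were compared on a log2 scale after each list was centred on its median over the 8230 genes, so a change is relative to the median promoter. Of the 71 members tested, 35 were higher and 19 lower in erythroid cells (limma over all 8230 genes, adjusted p under 0.05). Among all genes 38.2% were higher and 37.6% lower. The members' median change was 0.22 on the log2 scale, against 0.016 over all genes, with 25 higher and 11 lower of 41 large subunit genes and 10 higher and 8 lower of 30 small subunit genes. Without the centring the median of all genes moved to 0.64, and the members' calls to 49 higher and 1 lower. Counts without centring, here and below, are given without the share of all genes called in that setting. They do not set the members against all genes. Without the 14 members that share their highest peak with another gene, 27 of 57 were higher and 18 lower. Against CMP and GMP alone, whose libraries are numbered in 1 run with CFUE and ERY, 34 members were higher and 17 lower.

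**Figure D4:**
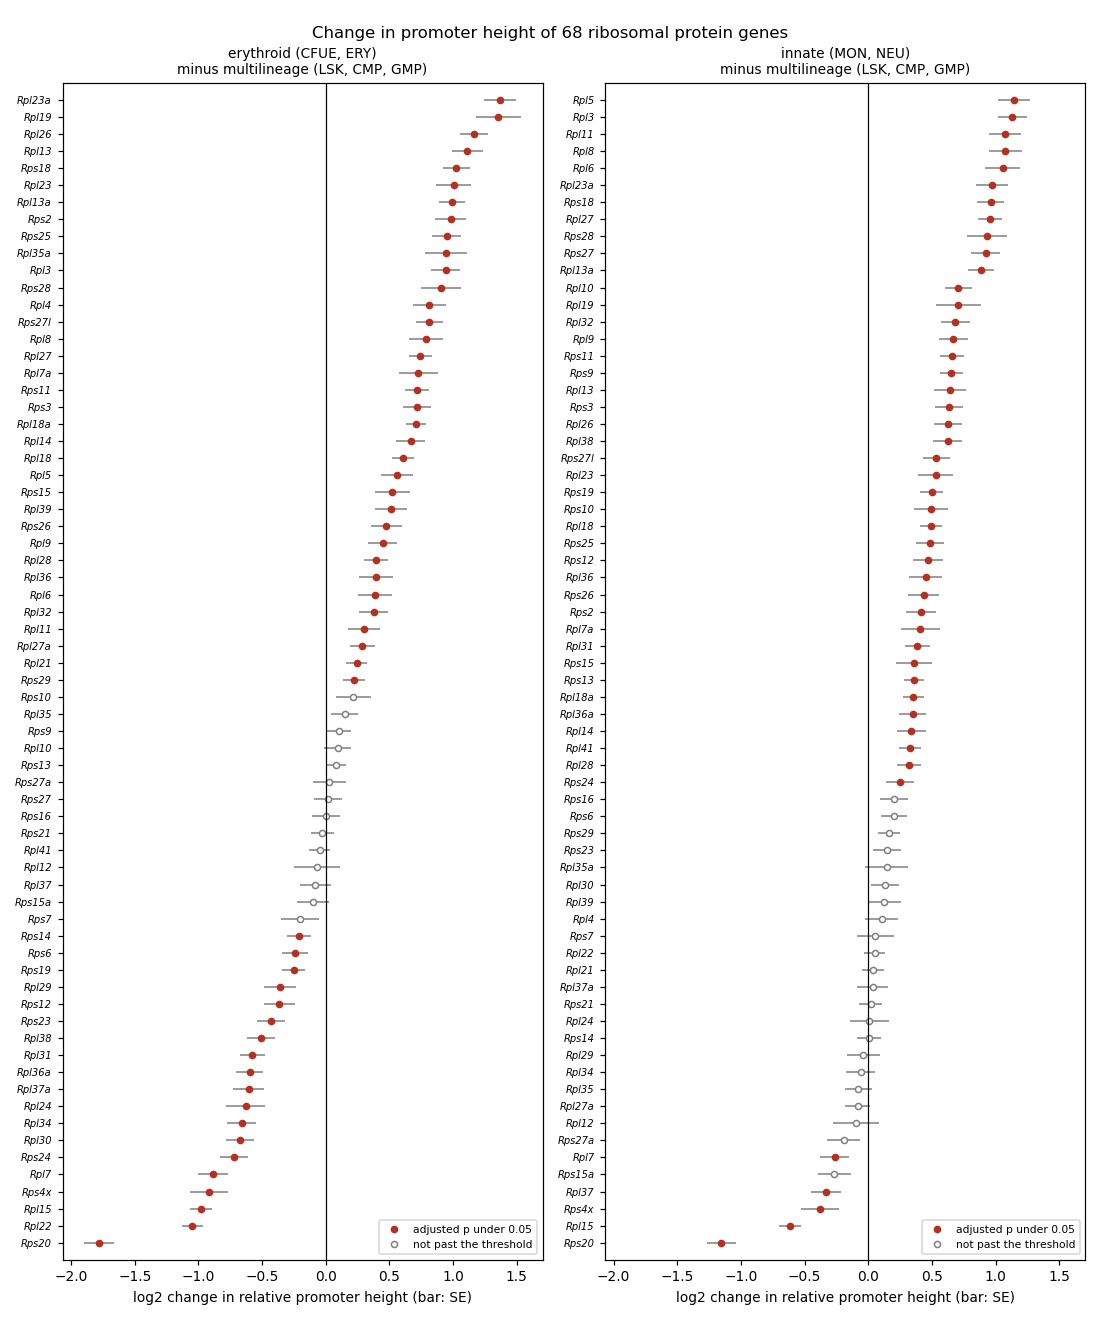
Log2 change in relative promoter height (horizontal axis, bars are SE) of 68 members called in all 24 lists (rows), for erythroid minus multilineage cells (left) and innate minus multilineage cells (right), each sorted by the change; filled points have an adjusted p under 0.05. In erythroid cells 35 of those shown are higher and 19 lower, and in innate cells 41 are higher and 5 lower, with Rps20 lowest in both.

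The largest rises in erythroid cells were those of Rpl23a, Rpl19, Rpl26, Rpl13, Rps18 and Rpl23. Rpl23a, which sits at the exit of the peptide tunnel, had 1.22 and 1.38 times the median promoter in CFUE and 1.71 and 1.50 in ERY, against a lowest value of 0.437, a median of 0.594 and a highest value of 0.656 in the 6 multilineage libraries. All 4 erythroid values lay above all 6 multilineage values, with a log2 change of 1.37 ± 0.13 (SE), adjusted p = 5.05e-11. Such separation was common. The erythroid values lay all above in 27.9% of all genes and in 24 members, and all below in 27.5% and in 11 members. Rpl19 had 1.13 and 0.929 in CFUE and 1.46 and 1.28 in ERY, against a lowest value of 0.269, a median of 0.465 and a highest value of 0.795, a log2 change of 1.36 ± 0.18 (SE), adjusted p = 5.40e-08. Rpl26, a tunnel-exit protein that also binds the p53 mRNA and is a Diamond-Blackfan anemia gene, was likewise separate in every library. Its heights were 1.46 and 1.58 in CFUE and 1.96 and 2.25 in ERY, against a lowest value of 0.623, a median of 0.826 and a highest value of 0.979, a log2 change of 1.17 ± 0.11 (SE), adjusted p = 8.30e-11. Rps18, a protein of the head of the small subunit, had 1.66 and 1.68 in CFUE and 2.27 and 2.38 in ERY, against a lowest value of 0.744, a median of 0.986 and a highest value of 1.21. Its log2 change was 1.03 ± 0.11 (SE), adjusted p = 8.53e-10, and its highest peak is shared with Vps52. Rpl13 and Rpl23 changed by 1.11 and 1.00 on the log2 scale.

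The largest falls in erythroid cells were those of Rps20, Rpl22, Rpl15, Rps4x, Rpl7 and Rps24. Rps20, a small subunit protein, had the largest change of any member. It reached 0.538 and 0.504 times the median promoter in CFUE and 0.187 and 0.211 in ERY, against a lowest value of 0.847, a median of 1.14 and a highest value of 1.40 in the multilineage libraries, a log2 change of -1.78 ± 0.12 (SE), adjusted p = 2.84e-14. The groups did not overlap, as in 27.5% of all genes in this direction, and the ERY values lay below those of CFUE. Rpl22, a large subunit protein needed for alpha-beta T cell development in mice, had 0.902 and 0.875 in CFUE and 1.25 and 1.33 in ERY, against a lowest value of 1.81, a median of 2.29 and a highest value of 2.43, a log2 change of -1.05 ± 0.08 (SE), adjusted p = 1.63e-12. Its values were lower in CFUE than in ERY, in the opposite order to Rps20. Rpl15, whose highest peak is shared with Nkiras1, had 1.62 and 1.71 in CFUE and 1.73 and 1.54 in ERY, against a lowest value of 2.59, a median of 3.44 and a highest value of 3.82, a log2 change of -0.98 ± 0.09 (SE), adjusted p = 1.77e-11. Rps4x changed by -0.92, Rpl7 by -0.89 and Rps24 by -0.72 on the log2 scale.

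**Figure D5:**
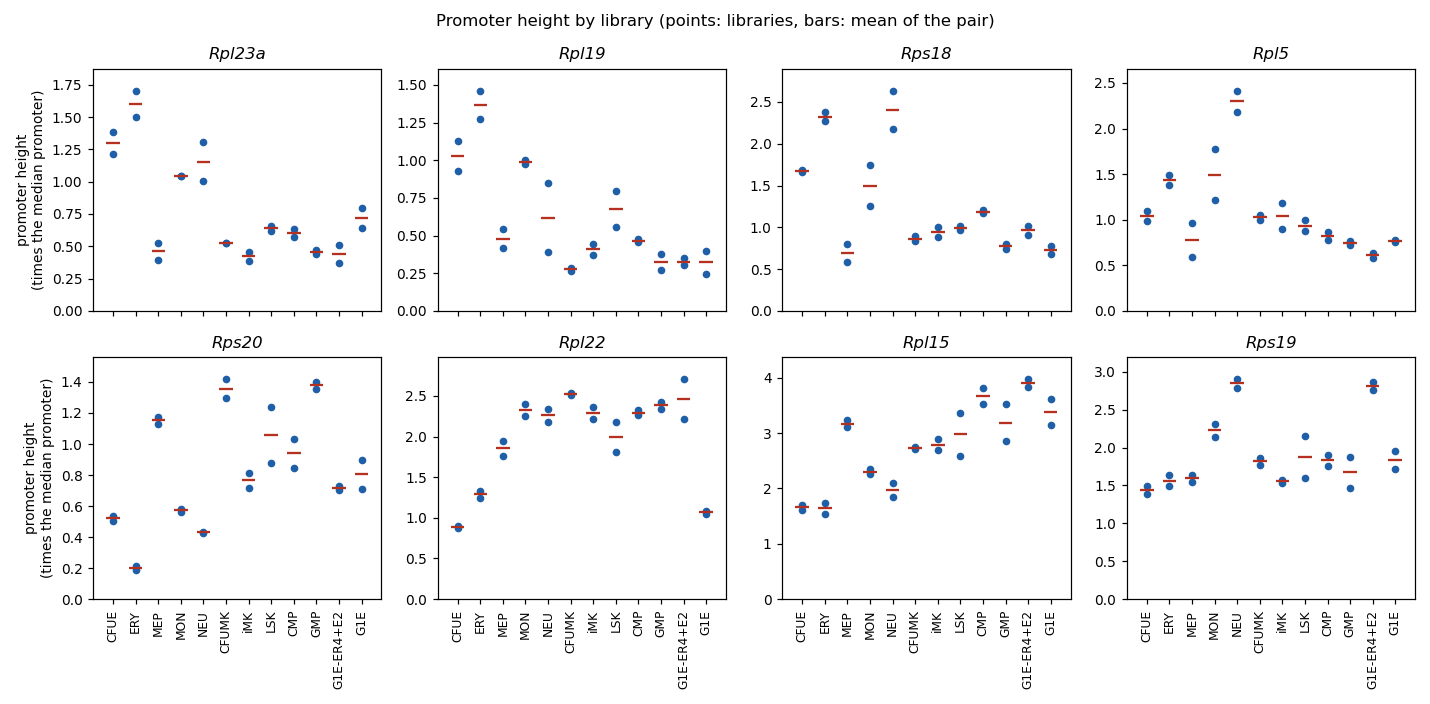
Promoter height (vertical axis, multiples of the list's median promoter, from 0) of 8 members in 12 populations (horizontal axis); points are libraries and bars the mean of the pair. Rpl23a and Rpl19 are highest in ERY, Rps18 in NEU and ERY and Rpl5 in NEU, while Rps20 is lowest in ERY, at 0.187 and 0.211, and Rpl22 in CFUE, at 0.902 and 0.875.

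Among the 19 Diamond-Blackfan anemia genes that are members, all were called in all 24 lists, and 9 were higher and 4 lower in erythroid cells, beside the 38.2% and 37.6% of all genes. In innate cells 13 of the 19 were higher and 1 lower, against 32.6% and 31.3% of all genes. Those higher in erythroid cells were Rpl26 (1.17), Rpl35a (0.95), Rps28 (0.91), Rpl27 (0.74), Rpl18 (0.60), Rpl5 (0.56), Rps26 (0.48), Rpl11 (0.30) and Rps29 (0.22), each as a log2 change. Rpl5 and Rpl11 form a particle with the 5S rRNA that inhibits MDM2 and so stabilises p53. Those lower were Rpl15 (-0.98), Rps24 (-0.72), Rpl31 (-0.58) and Rps19 (-0.25). Rps19, the gene most often mutated in the anemia, had 1.39 and 1.49 in CFUE and 1.49 and 1.63 in ERY, against a lowest value of 1.47, a median of 1.82 and a highest value of 2.16 in multilineage libraries. These values overlap, with a log2 change of -0.25 ± 0.09 (SE), adjusted p = 0.014. Rps14, the 5q- gene, had 0.902 and 1.00 in CFUE and 1.17 and 1.20 in ERY, against a lowest value of 1.01, a median of 1.28 and a highest value of 1.41, also overlapping, with a log2 change of -0.21 ± 0.09 (SE), adjusted p = 0.044. The values for Rps19 and Rps14 turned positive without centring (0.37 and 0.41) and when uncalled promoters were kept at the lowest score (0.15 and 0.19).

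CFUE was also set against MEP, the progenitors before it. In CFUE 31 of the 71 members were higher and 13 lower, against 29.4% and 30.4% of all 8230 genes. Without centring, where the median of all genes was 0.97, 52 members were higher and 0 lower (limma), again without the share of all genes in that setting. Both comparisons use the CFUE libraries, so their values are given side by side only. Rpl23a had 1.22 and 1.38 in CFUE, against 0.527 and 0.394 in MEP, a log2 change of 1.51 ± 0.19 (SE), adjusted p = 1.20e-07. Rpl26, Rps18, Rps2, Rpl3 and Rpl13a followed with 1.45, 1.28, 1.26, 1.23 and 1.20. Rpl3 lies at the peptidyl transferase centre, and Rpl13a is known for its part in interferon-dependent control of translation in human monocytic cells. The largest falls were those of Rps20, at 0.538 and 0.504 in CFUE against 1.17 and 1.13 in MEP (-1.15 ± 0.18 (SE), adjusted p = 3.53e-06), and of Rpl22, at 0.902 and 0.875 in CFUE against 1.95 and 1.76 in MEP (-1.06 ± 0.13 (SE), adjusted p = 3.59e-08). Rpl7, Rpl34, Rpl15 and Rpl37a fell by 0.96, 0.94, 0.93 and 0.86 on the log2 scale.

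In the mature innate cells MON and NEU, set against the same multilineage populations, 43 of the 71 members were higher and 5 lower, against 32.6% and 31.3% of all genes. The median change of the members was 0.36 on the log2 scale, against 0.022 over all genes. Large and small subunit genes moved in like proportion, 25 of 41 and 18 of 30 higher. MON and NEU were numbered in a run with LSK replicate 2 only. It is 1 library of the pair that differed most over the members. The spread in a fit against that library alone comes from the other populations, so no count of higher and lower promoters is given for it. Without centring the median of all genes was -0.40 and the members' calls 5 higher and 7 lower, so the rises are relative to the median promoter of each list. B cell marker promoters were called in all 10 cases in the NEU lists, as given above, and their part was not tested.

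Rpl5 had the largest rise in innate cells, with 1.77 and 1.22 in MON and 2.42 and 2.18 in NEU, against a lowest value of 0.726, a median of 0.822 and a highest value of 0.996 in multilineage libraries, a log2 change of 1.15 ± 0.13 (SE), adjusted p = 7.76e-09. Rpl3 had 2.28 and 2.19 in MON and 2.13 and 2.64 in NEU, against a lowest value of 0.858, a median of 1.10 and a highest value of 1.22, a change of 1.13 ± 0.11 (SE), adjusted p = 1.77e-09. Neither gene's innate libraries overlapped with the multilineage ones. Rpl11, Rpl8, Rpl6 and Rpl23a changed by 1.08, 1.08, 1.05 and 0.97, and Rpl8 is a core protein of the peptidyl transferase centre. The 5 members that fell were Rps20 (-1.15), Rpl15 (-0.61), Rps4x (-0.38), Rpl37 (-0.33) and Rpl7 (-0.26). Rps20 had 0.582 and 0.563 in MON and 0.434 and 0.426 in NEU, below all 6 multilineage values, with an adjusted p of 1.92e-09 (limma). Rpl37 had 1.32 and 1.40 in MON and 2.99 and 2.96 in NEU, against a lowest value of 1.51, a median of 2.65 and a highest value of 3.15, and LSK replicate 2 alone had 1.51, so against that library the change was 0.41.

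The erythroid and innate comparisons share their multilineage libraries, so erythroid cells were also set against innate cells directly. Of the 71 members 15 were higher and 30 lower in CFUE and ERY than in MON and NEU, against 34.8% and 34.2% of all genes. The 2 groups of libraries lie in different number runs, so a batch and the cell type cannot be told apart here.

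In the megakaryocytic cells CFUMK and iMK, 6 of the 71 members were higher and 5 lower than in multilineage cells, against 11.7% and 12.2% of all genes, and the members' median change was -0.0057. Those higher were Rpl14 (0.49), Rps12 (0.34), Rpl34 (0.33), Rpl27a (0.32), Rps13 (0.28) and Rpl21 (0.28). Rps12, known from cell competition in Drosophila, had 2.46 and 2.32 in CFUMK and 2.69 and 3.05 in iMK, against a lowest value of 1.19, a median of 2.23 and a highest value of 2.60 in multilineage libraries. These values overlap. Those lower were Rpl4 (-0.54), Rpl7 (-0.35), Rps14 (-0.34), Rps27 (-0.31) and Rpl15 (-0.24). The number of members called ranged from 4 without CMP replicate 2 to 15 without LSK replicate 1. Without centring, where the median of all genes was 0.85, 69 members were higher and 0 lower, so all 5 falls are relative to the median promoter. No share of all genes in that setting stands beside these counts.

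In the cell lines the clone with restored function of GATA1, the master regulator of the erythroid lineage, was set against its parent. The clone, its treatment with E2 and the function of GATA1 cannot be told apart in this comparison. In G1E-ER4+E2 13 of 71 members were higher and 4 lower than in G1E, against 9.14% and 9.77% of all genes. Rpl22 had 2.71 and 2.21 times the median promoter in G1E-ER4+E2, against 1.05 and 1.08 in G1E, a log2 change of 1.20 ± 0.13 (SE), adjusted p = 1.21e-07. In CFUE and ERY, as given above, the same promoter was lower than in multilineage cells. Rpl18, whose highest peak is shared with Sphk2, had 1.72 and 1.63, against 0.888 and 0.815 in G1E (0.98 ± 0.13 (SE), adjusted p = 5.60e-06). Rps16 and Rps2 rose by 0.92 and 0.85 on the log2 scale. Among the falls were those of Rpl35a (-0.95), Rpl32 (-0.73) and Rpl23a (-0.72). Rpl35a had 0.185 and 0.282 in G1E-ER4+E2, against 0.636 and 0.308 in G1E, and Rpl23a 0.371 and 0.506, against 0.795 and 0.641 in G1E. The number of members called ranged from 9 without G1E-ER4+E2 replicate 1 to 20 without LSK replicate 1. Without centring, where the median of all genes was 0.65, 17 members were higher and 0 lower, also without the share of all genes in that setting.

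Peaks were also counted across each gene body and 20 kb on each side. The members' median was 5 to 11 peaks in primary libraries and 6 to 8 in the cell lines, against 5 to 10 and 2 to 4 for all coding genes. Of the peaks near members, 44.5% to 47.8% lay within 500 bp of a member's own start in CFUE and ERY, against 30.5% to 38.4% in LSK, CMP and GMP. Peaks away from any coding start made up 25.9% to 26.1% in CFUE and ERY, against 29.3% to 39.4% in LSK, CMP and GMP. Over all peaks of a list, the share away from coding starts was 66.2% to 72.8% in CFUE and ERY, against 70.1% to 80.5% in LSK, CMP and GMP, ranges that overlap.

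After scaling to the number of peaks in the list, 43 of 74 members tested passed the threshold with more peaks in erythroid than in multilineage cells. With fewer peaks 1 member passed, against 39.0% with more and 17.6% with fewer of the 17042 genes tested. The median change was 0.53 for the members and 0.30 for all genes on the log2 scale. Other lists had like shares, with more peaks at 48 of 78 mitochondrial ribosomal genes (61.5%), 26 of 37 translation factors (70.3%) and 11 of 18 housekeeping genes (61.1%), beside 58.1% of the members. The direction rests on the scaling. Without it 2 members were higher and 18 lower, against 555 higher and 7921 lower of the 17042 genes. The median was then -0.18 for the members and -0.43 for all genes. With scaling but without CFUE replicate 2, 28 members passed in either direction. Rpl7a, a large subunit gene in the tight Surf gene cluster, had the largest scaled change (1.53 ± 0.19 (SE), adjusted p = 2.41e-07). It had 14 and 15 peaks in CFUE and 14 and 13 in ERY, against 9 and 6 in LSK, 10 and 9 in CMP and 8 and 5 in GMP, so its raw numbers were higher too. Its window also holds starts of Med22, Surf1, Surf2 and Surf6. Further rises were those of Rpl17 (1.13), Rpl26 (1.13) and Rps25 (0.98).

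While 67 of the 74 members had a positive scaled change, Rps14 was the 1 member that passed the threshold with fewer peaks in erythroid cells. Its window held 5 and 4 peaks in CFUE and 4 and 7 in ERY, against 12 and 13 in LSK, 19 and 21 in CMP and 18 and 17 in GMP, a scaled log2 change of -0.83 ± 0.19 (SE), adjusted p = 7.16e-04. The groups did not overlap in these numbers, and the share of all genes separated in this way was not counted. At its own starts there were 4 and 2 peaks in CFUE and 3 and 6 in ERY, against 2 to 4 in the multilineage libraries. Away from coding starts there were 1 and 2 in CFUE and 1 in each ERY library, against 8 and 8 in LSK, 15 and 16 in CMP and 13 and 12 in GMP. The lower number therefore lay in the peaks outside the starts of Rps14 and of Ndst1, the other coding gene that starts in the window. MEP, at 12 and 15 peaks, lay above CFUE, with a change of -0.96 ± 0.30 (SE), adjusted p = 0.045 for CFUE minus MEP. G1E-ER4+E2 had 12 and 13 peaks, against 4 and 7 in G1E, of which 6 and 7 lay away from coding starts in G1E-ER4+E2, against 1 and 1 in G1E.

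In the other comparisons fewer members passed the threshold for peak number. In simulated data the erythroid fit found 32% of falls and 30% of rises of 1 on the log2 scale. The innate fit found 26% and 30%, the megakaryocytic fit 12% and 28%, and CFUE minus MEP 6% and 2%. The simulations changed 50 genes at each size and direction, whereas 39.0% of all genes were higher and 17.6% lower in the real erythroid fit. The adjusted threshold depends on how many genes change, so these rates need not hold for the real fits. A member that did not pass is in any case not shown to be unchanged. In innate cells 10 of 74 were higher and 0 lower, against 13.9% and 12.8% of all genes, and among the largest changes were those of Rps20 (0.98), Rpl17 (0.85), Rps19 (0.82), Rps9 (0.69) and Rps21 (0.66). Against LSK replicate 2 alone, with the limit given above, no member passed (limma, 7 at an unadjusted p under 0.05), and without scaling 32 members were lower and 0 higher. With scaling 2 members passed without NEU replicate 2 and 23 without NEU replicate 1. For CFUE minus MEP 5 members were higher (among them Rps3, Rpl7a, Rps16 and Rpl36a) and Rps14 lower, against 2.04% and 5.18% of all genes, and none passed without MEP replicate 1. Between megakaryocytic and multilineage cells 0 of 74 members passed (limma, 1 at an unadjusted p under 0.05), against 0.229% of all genes in either direction. For G1E-ER4+E2 minus G1E 8 members were higher and 0 lower, against 11.5% and 4.92% of all genes. In simulated data that fit called 523 of 16842 unchanged genes, so no gene is named from it.

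Other genes of the translation machinery were set beside the members as lists. All 11 cytosolic ribosomal genes outside the symbol rule, all 40 ribosome biogenesis genes and 36 of 37 translation factors (all but Eif3g) were called in all 24 lists, as were 75 of 78 mitochondrial ribosomal genes and 18 of 18 housekeeping genes. In erythroid cells 24 of 36 translation factors had higher promoters and 7 lower, with a median change of 0.52. The mitochondrial ribosomal genes had 32 higher and 26 lower of 75, with a median of 0.15, and the ribosome biogenesis genes 10 higher and 15 lower of 40, with a median of -0.059. In innate cells the mitochondrial ribosomal genes had 22 higher and 25 lower, with a median of -0.092, and the translation factors 13 higher and 5 lower of 36, with a median of 0.11. The ribosome biogenesis genes had 14 higher and 6 lower of 40 in innate cells, with a median of 0.13, and the housekeeping genes 9 higher and 4 lower of 18, with a median of 0.19, beside 32.6% and 31.3% of all genes. In erythroid cells the housekeeping genes had 6 higher and 9 lower, with a median of -0.25. The cytosolic ribosomal genes outside the symbol rule had 7 higher and 1 lower of 11 in erythroid cells and 4 higher and 1 lower in innate cells.

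The members have many processed pseudogenes, copies made from mRNA that lack the promoter. Of 282 ribosomal protein pseudogenes with a -ps symbol, 2 (0.709%) had a peak within 500 bp of the annotated start in all 24 lists and 220 in none, against 44 of 10236 processed pseudogenes (0.430%) in all 24 lists and 7341 in none. Between 4 and 26 of the 282 were called in any 1 list. The study's pipelines in general kept reads that map to several places, so reads from gene bodies and their copies cannot be told apart in these lists.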

How the data were processed

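ATAC-seq was run on 24 libraries, 2 from each of 12 populations. Per the submitters' processing notes and the study's methods, reads were aligned to mm10 with Bowtie 0.12.8, in pipelines that in general kept reads mapping to several places, with bcl2fastq, SAMtools 1.6 and bedtools also named, and peaks were called per library with HOMER. The deposited lists give for each peak a score from the authors' peak caller, whose unit is not named in the sources used here and which was treated as proportional to normalized read number. The score steps of each list were multiples of 1 value (within 0.0051 of a whole step), which gave relative depth only. Coverage between peaks was not analysed here.

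A gene was assigned the highest peak score within 500 bp of a GENCODE vM21 transcript start. Changes were tested with limma 3.58.1 in R 4.3.3 on log2 scores over the 8230 genes called in all 24 lists, each list centred on its median. Peaks with their centre in a gene or within 20 kb on each side were counted, over genes with a mean of at least 3. A prior of 1 peak on average, in proportion to the number of peaks in the list, was added to each number. The result was scaled to 100000 peaks per list and tested on the log2 scale. All populations shared 1 estimate of the spread, p-values were adjusted by Benjamini and Hochberg over all genes, and 0.05 was the threshold. Both fits were tested on simulated data. Replicates were named in accession order. The labels also give library numbers, which form 2 runs over 7 populations, and a fit with the run as a replicate block was added after seeing the data. The members, gene lists and comparisons were chosen with earlier results of these data known. Named genes were those uncalled in 1 or more lists, up to 6 largest rises and falls per comparison and measure, the 5 highest and 5 lowest promoters, and the disease and paralog lists. The comparison of erythroid with innate cells, the wider TOP search, the pseudogene list and the parts of the peak windows were added after seeing the data. Alternatives changed 1 choice at a time. Sequences are from RefSeq, GRCm38.p6. Some members enter every count but are not reported here by name.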

Additional observations from a re-analysis of the deposited data

Results flagged for a closer look

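For 6 members the erythroid and the innate comparison were both past the threshold in opposite directions. In the fitted group means they were lower in CFUE and ERY and higher in MON and NEU than in the multilineage cells. That choice fixes the sign of the difference between erythroid and innate cells, which is given below as a description. For Rps19 and Rpl31 the erythroid value turned positive without centring (0.37 and 0.047), and for Rps19 also with uncalled promoters at the lowest score (0.15). No member showed the reverse. Over all 8230 genes 37.6% were lower in erythroid cells and 32.6% higher in innate cells, each taken alone. The share of all genes with both, or with the reverse, was not counted, so neither count sets the members apart. Rpl38, a large subunit protein needed for translation of Hox mRNAs in the mouse embryo, had 0.460 and 0.482 times the median promoter in CFUE and 0.621 and 0.539 in ERY, against MON values of 1.13 and 1.10 and NEU values of 1.07 and 1.28, a log2 difference of -1.13. Rps24, a Diamond-Blackfan anemia gene, had 0.663 and 0.706 in CFUE and 1.06 and 0.999 in ERY, against MON values of 1.52 and 1.64 and NEU values of 1.88 and 1.55, a difference of -0.97. Polr3a starts within 500 bp of Rps24, but the highest peak of Rps24 was shared with that start in 0 of 24 lists. Rpl31 had a difference of -0.96, with 0.975 and 1.04 in CFUE and 1.03 and 1.00 in ERY, against MON values of 1.76 and 2.02 and NEU values of 2.17 and 1.94. Rpl36a differed by -0.95 and Rps12 by -0.83 on the same scale. Single libraries could overlap with the multilineage ones. Rps12 had 2.19 and 2.05 in MON, within the multilineage range of 1.19 to 2.60. Its lowest multilineage value, in LSK replicate 2, lay below the CFUE values of 1.68 and 1.49 and the ERY values of 1.65 and 1.58. The innate values of Rps24 overlapped with 1.56 in CMP and with 1.73 and 1.58 in GMP. For Rpl38 neither group overlapped with the multilineage libraries. Rps19 had 1.39 and 1.49 in CFUE and 1.49 and 1.63 in ERY, against MON values of 2.32 and 2.13 and NEU values of 2.79 and 2.91, a difference of -0.75. Erythroid and innate libraries belong to different runs of library numbers, so the 2 cannot be told apart from a batch, and all 10 B cell marker promoters were called in the NEU lists, whose part was not tested. Populations with 2 libraries were too small to be searched for single outlying libraries.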

How the results depend on the processing

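Apart from LSK, the bone marrow populations have library numbers in 2 runs. Over the 21 pairs of these populations, the differences between runs correlated at -0.18 to 0.27 for promoter scores and -0.18 to 0.25 for peaks near genes, above 0.1 in 6 pairs for each, so the numbers were not taken to pair the libraries. With the run as a replicate block on these 14 libraries, with CMP and GMP as multilineage cells and chosen after seeing the data, 59 members passed for promoter scores in erythroid cells, 19 in megakaryocytic cells and 51 for CFUE minus MEP, against 59, 18 and 51 without the block. For peaks near genes the block gave 55, 0 and 8, against 54, 0 and 9 without it (limma, with 1 member at an unadjusted p under 0.05 in megakaryocytic cells with the block and 0 without). Counts below are members past the threshold in either direction, and the cause of a change was not tested. Most counts under an alternative, here and above, stand without the share of all genes in that setting. They show how the members' numbers move and do not set the members against all genes. The median member's percentile among all peaks was 88.8 when ranked among promoter peaks only. Without scaling to the number of peaks, 20 members passed for peaks near genes in erythroid cells, 32 in innate cells and 3 for CFUE minus MEP. With the 50000 highest peaks of each list, 17 passed in innate cells, 2 in megakaryocytic cells and 18 for CFUE minus MEP. With 5 kb on each side, 3 passed for CFUE minus MEP and 3 for G1E-ER4+E2 minus G1E. Within libraries numbered together, 0 passed in innate cells (limma, 7 at an unadjusted p under 0.05). For promoter scores without centring, 12 passed in innate and 69 in megakaryocytic cells, and with summed scores 29 in innate cells, 3 in megakaryocytic cells and 7 for G1E-ER4+E2 minus G1E. In megakaryocytic cells 7 passed within libraries numbered together, and, in alternatives chosen after seeing the data, 6 with centring in classes of G and C content and 4 with the second score.

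Among named genes 30 values changed sign with the main or the alternative value past the threshold. All are given here on the log2 scale, and sign changes with neither value past it were not counted. Without centring of promoter scores, CFUE minus MEP became 0.035 for Rpl15, 0.025 for Rpl34, 0.11 for Rpl37a and 0.0048 for Rpl7. Megakaryocytic minus multilineage became 0.61 for Rpl15, 0.31 for Rpl4, 0.50 for Rpl7, 0.51 for Rps14 and 0.54 for Rps27, and erythroid minus multilineage 0.047 for Rpl31, 0.41 for Rps14, 0.52 for Rps15a and 0.37 for Rps19. With uncalled promoters at the lowest score, erythroid values became 0.19 for Rps14, 0.30 for Rps15a and 0.15 for Rps19. With summed scores, Rpl27a became -0.24 in megakaryocytic cells and Rpl35a 0.079 for G1E-ER4+E2 minus G1E, and with the second score Rpl34 became -0.044 in megakaryocytic cells. Within libraries numbered together, innate values became 0.41 for the promoter of Rpl37 and -0.10 for peaks near Rps19. For peaks near genes in erythroid cells without scaling, the values became -0.45 for Rpl18, -0.19 for Rpl27, -0.25 for Rpl35a, -0.14 for Rps19, -0.0065 for Rps26 and -0.12 for Rps28, and with the 50000 highest peaks -0.30 for Rpl18, 1.47 for Rps10 and -0.081 for Rps19.

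Leaving out 1 library at a time gave 71 to 73 members called in every list and a median percentile of 96.6 to 96.8. For peaks near genes the members past the threshold ranged from 28 (without CFUE replicate 2) to 49 in erythroid cells, from 2 (without NEU replicate 2) to 23 (without NEU replicate 1) in innate cells, stayed at 0 in megakaryocytic cells, and ranged from 0 to 8 for CFUE minus MEP and from 5 to 11 for G1E-ER4+E2 minus G1E. For promoter scores they ranged from 49 to 55 in erythroid cells, 43 to 49 in innate cells, 4 to 15 in megakaryocytic cells, 35 to 45 for CFUE minus MEP and 9 to 20 for G1E-ER4+E2 minus G1E. With 2 libraries a population, a population reduced to 1 library is assumed to vary like the others. Peak lists hold no values below the caller's threshold, so an uncalled promoter is not a closed one, and the shallower cell line lists limit what was called there.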
